A study of Mus musculus with 15 samples.

Results

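Dopaminergic nuclei of the mouse ventral tegmental area were compared with the other nuclei of the same tissue, in mice trained to press a lever for food and given no drug. The comparison takes 8 of the 15 RNA-seq libraries of the series, chosen by their labels: 4 libraries of HA-positive (dopaminergic) and 4 of HA-negative (non-dopaminergic) nuclei. All were made from male DAT-Cre mice of 8 to 12 weeks, heterozygous for the allele of B6.SJL-Slc6a3tm1.1(cre)Bkmm/J, in which Cre recombinase is expressed from the locus of the dopamine transporter gene Slc6a3. The virus AAV5-DIO-KASH-HA was injected into the ventral tegmental area. Where Cre is present, it marks the nuclear envelope with an HA tag. The labels allot 14 days to expression of the virus, and food training went from FR1 (1 response for each food reward) to FR5 over 7 days, with tissue taken after the last session. Punches of 2 mice were pooled for each library, and frozen nuclei were sorted by their size and complexity, HA and DAPI. Both populations therefore carry the Cre allele and come from injected, food-trained animals. Cells that express Cre but were not reached by the virus would be sorted as HA-negative, and the HA-negative gate held no marker of neurons, so that glial nuclei were collected with the neurons. The other 7 libraries are HA-positive nuclei taken after cocaine self-administration (3) or abstinence from it (4). They entered no test here, and their levels are given for a few genes beside the main values.

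Midbrain dopamine neurons make dopamine from tyrosine, load it into vesicles, release it from long, highly branched axons as well as from their dendrites, and take it back up through the dopamine transporter. They fire as pacemakers, and their activity is tuned by acetylcholine, opioid peptides, neurotensin and dopamine itself. In the ventral tegmental area they lie among GABA and glutamate neurons and the usual glia, and some dopamine neurons also carry the vesicular glutamate transporter. Nuclear RNA, which was measured here, holds many unspliced transcripts and reflects what is being transcribed and retained in the nucleus more than the cytoplasmic pool.

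The marker genes matched the labels of the sort. Slc6a3 stood at 2271, 2913, 2269.5 and 4501 counts per 1000000 (CPM) in dopaminergic replicates 1 to 4 and at 87.4, 120.0, 79.1 and 84.7 CPM in non-dopaminergic replicates 1 to 4. Mag, a myelin protein of oligodendrocytes, stood at 75.0, 100.5, 74.5 and 92.1 CPM against 1375, 1012, 933 and 1340.4 CPM. The groups did not overlap for either gene, nor for Th, Slc18a2, Ret or Chrna6. Summed over lists of markers, genes shared by neurons in general overlapped between the populations, at 34637 to 50405 CPM in dopaminergic and 36082 to 40219 CPM in non-dopaminergic libraries. Much of that sum is the noncoding RNA Meg3, at 11099 to 24127 against 16956 to 22897 CPM. The sum without Meg3 was not taken, so the overlap does not show equal neuronal content. Of the 24 genes on the list, 6 were higher (25%) and 2 lower (8.33%) by the test used below. Summed oligodendrocyte markers stood at 1843 to 2929 against 10447 to 24169 CPM, astrocyte markers at 2227 to 2831 against 4665 to 7859.7 CPM, and microglia markers at 618 to 1358 against 2325 to 5083 CPM. The sum of the oligodendrocyte precursor list was 359 to 426 against 608 to 686 CPM. Sums of vascular markers overlapped, at 1833 to 3647 against 1289.9 to 2551 CPM. Yet only 2 of the 15 vascular markers had a positive log2 fold change, and their median was -1.41, with 0 called by the test used below. The labels call the HA-negative nuclei non-dopaminergic neurons, but these sums show glial RNA in them, and they are called HA-negative or non-dopaminergic nuclei below.

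**Figure D1:**
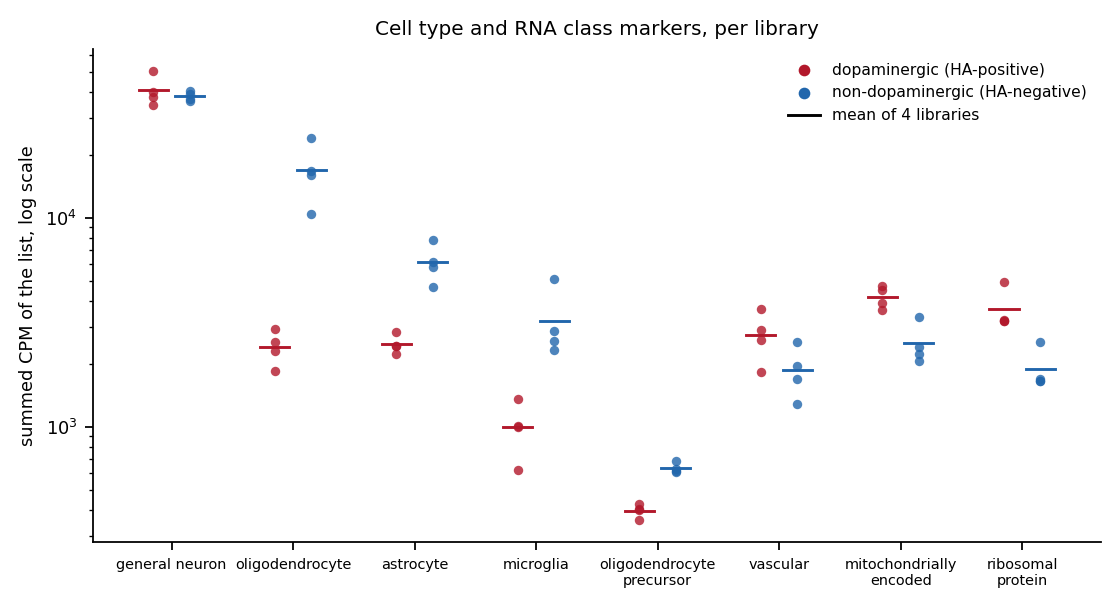
Summed CPM (log scale) of marker lists and RNA classes in each of the 8 libraries, with points for libraries and a bar for the mean of 4. The sum of general neuron genes, much of it Meg3, overlaps between the populations. The sums of oligodendrocyte, astrocyte and microglia markers are all lower in dopaminergic libraries, and those of mitochondrially encoded and ribosomal protein genes are all higher.

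The dopaminergic libraries held 25813697 to 57522235 counts and 14841 to 18372 genes with at least 1 count. The non-dopaminergic libraries held 39306070 to 50174738 counts and more genes, 22733 to 23886. Correlation of log2 CPM between replicates was lower among dopaminergic libraries (0.728 to 0.780) than among non-dopaminergic ones (0.925 to 0.959). Between libraries of the 2 populations it was 0.732 to 0.801, no lower than among the dopaminergic libraries themselves. Non-dopaminergic replicate 2 stood apart in how its values depend on base composition, with a slope of log2 CPM on transcript GC of -0.0346 per percent against 0.0133 to 0.0248 in the other 3. The labels do not say whether the numbered samples came from separate dissection days, and p-values measure the spread between these pools of mice.

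Dopaminergic nuclei differed from their neighbours in 2534 of 19786 genes tested. Tested with edgeR (quasi-likelihood F-test, Benjamini-Hochberg threshold 0.05), 719 genes (3.63%) were higher and 1815 (9.17%) lower than in the HA-negative nuclei. Whether called or not, the 4 dopaminergic values lay above all 4 others in 1269 genes (6.41%) and below them in 3893 (19.7%). In 1122 of the lower genes every dopaminergic library held at most 3 counts. Such genes pass the filter on low counts only through the other population, and all that were tested were called. Predicted genes and clones made up 597 of the lower genes. Among the 9893 genes over the median abundance the directions were nearly balanced, with 680 higher (6.87%) and 620 lower (6.27%). The counts depended on single libraries. The number of higher genes was 364, 395 and 433 without non-dopaminergic replicates 1, 3 and 4 and 1145 without dopaminergic replicate 3, and the number of lower genes was 3013 without dopaminergic replicate 4. Named genes whose call was lost in any of 8 fits, each without 1 library, are pointed out where they appear, and every other called gene named here kept it in all 8. For the gene groups described, the libraries that moved the count by more than 1.5 times are given where the count is above 2.

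**Figure D2:**
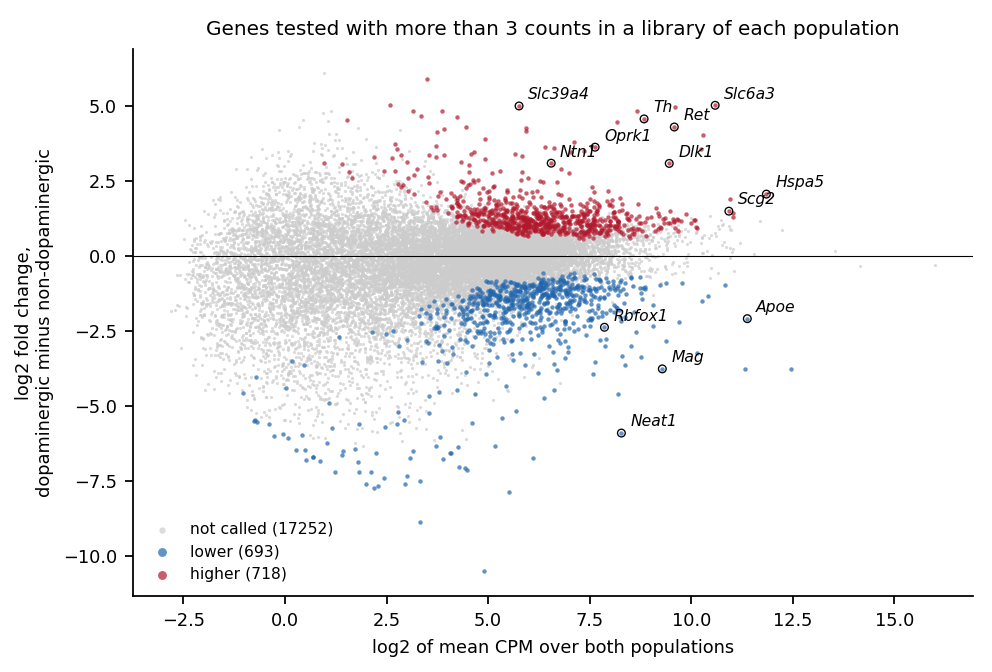
Log2 fold change between dopaminergic and non-dopaminergic nuclei against the log2 mean CPM of both, 1 point for each gene tested that had over 3 counts in at least 1 library of each population. Red points were called higher and blue points lower with edgeR, and the circled genes are described in the text.

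The genes that make, store and recapture dopamine were higher in dopaminergic nuclei, although not all of them passed. Of 15 tested members of this list, 7 were higher and 0 lower, where 3.63% of all genes tested were higher. Its median log2 fold change was 1.34, against -0.21 over all genes tested. The higher members were Th, Ddc, Gch1, Slc18a2, Slc6a3, Aldh1a1 and Slc10a4. Th, the rate-limiting enzyme of dopamine synthesis, stood at 670.4, 558, 1359 and 927 CPM against 41.4, 37.5, 41.1 and 29.6 CPM, and its log2 fold change was 4.57 (SE 0.33, edgeR's adjusted p 0.000651). Gch1, which makes the cofactor that Th needs, was at 24.1, 60.9, 14.0 and 45.6 CPM against 3.78, 4.48, 4.04 and 4.201 CPM, a log2 fold change of 3.14 (SE 0.50, edgeR's adjusted p 0.0067). The lowest dopaminergic value of Gch1 was still above every non-dopaminergic one. Slc10a4, an orphan transporter found on the synaptic vesicles of monoamine neurons, had a difference close to that of the dopamine transporter itself (5.02), with 1202, 1463, 1029.9 and 2342 CPM against 56.1, 66.5, 27.9 and 43.9 CPM and a log2 fold change of 4.97 (SE 0.40, edgeR's adjusted p 0.000733). Slc18a2, the vesicular monoamine transporter, was higher by 4.04 and Ddc, which turns L-DOPA into dopamine, by 2.77 on the log2 scale. Aldh1a1, an enzyme that oxidises aldehydes from dopamine and makes retinoic acid, changed less, by 1.34, from 80.1 ± 23.5 to 201 ± 33.8 CPM (SD, n = 4 each). Maoa, an enzyme that breaks dopamine down, did not pass, at 53.6 ± 16.5 against 28.2 ± 6.56 CPM (edgeR's adjusted p 0.0651).

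**Figure D3:**
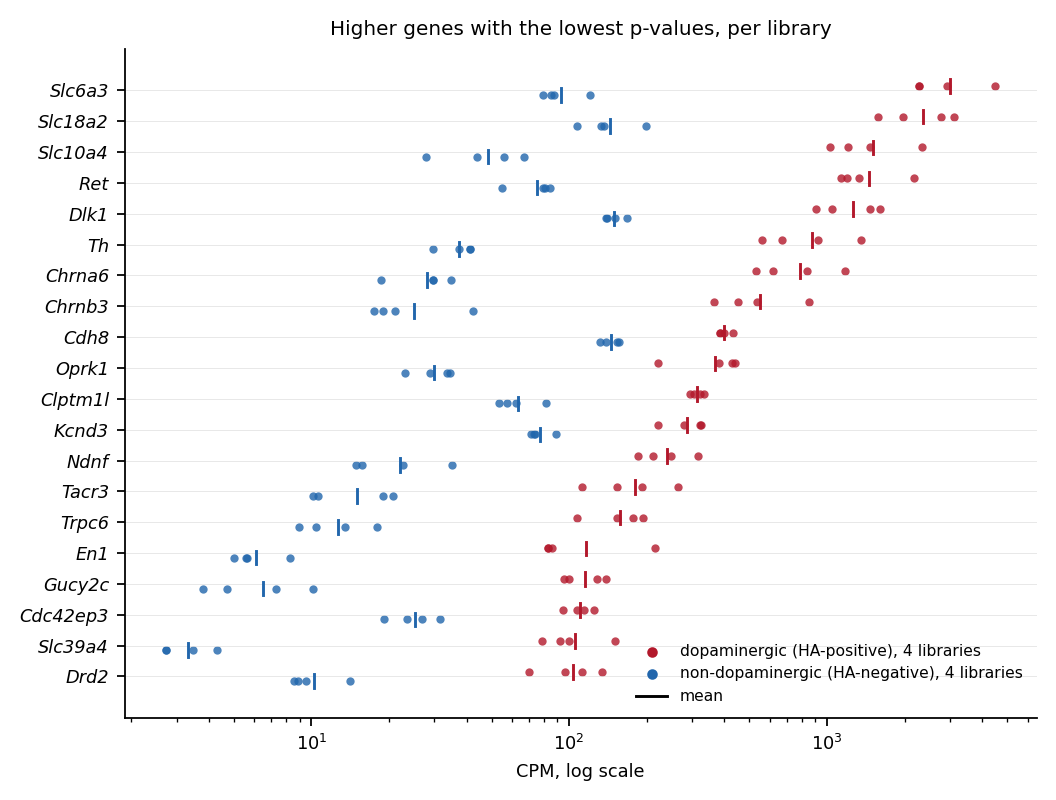
CPM (log scale) in each of the 4 dopaminergic and 4 non-dopaminergic libraries for the 20 higher genes of lowest p-value, ordered by mean CPM in dopaminergic nuclei, with bars for the means. The 2 sets of libraries do not overlap for any of the 20, and Slc39a4 is separated as widely as Slc6a3.

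Transcription factors that specify and maintain dopamine neurons were higher in 7 of 19 tested members (36.8%, against 3.63% of all genes tested) and lower in 0 (median log2 fold change 1.67). En1, a homeodomain factor on which the survival of these neurons depends, stood at 82.5, 85.9, 215 and 83.0 CPM against 5.03, 5.56, 8.26 and 5.62 CPM and had a log2 fold change of 4.26 (SE 0.41, edgeR's adjusted p 0.00158). Dopaminergic replicate 3 had the highest value, and the other 3 lay close together. Nr4a2 (Nurr1), the nuclear receptor that drives Th and Slc6a3, was higher by 2.61, Pitx3 by 4.24, Foxa2 by 3.37, the zinc finger factor Bnc2 by 2.53 and the chromatin organiser Satb1 by 2.03 on the log2 scale. Pitx3 was low and scattered, at 22.6, 15.4, 61.9 and 14.0 CPM against 1.27, 0.271, 2.24 and 2.29 CPM. Lmx1b, a partner of these factors, varied from 2.44 to 45.8 CPM in dopaminergic nuclei against 0.583 to 3.26 CPM and did not pass (edgeR's adjusted p 0.0613).

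Promoters of the raised genes were searched for the short motifs of these factors, on both strands, in windows from 250 bases before to 50 after the start site (RefSeq, GRCm38.p6). AAGGTCA, the core of the element that Nr4a2 binds as a monomer, was present in 2.81% of 533 promoters of higher genes, 4.27% of 1241 of lower genes and 3.54% of 13966 of all genes tested. The corresponding shares were 3.94%, 7.17% and 5.85% for TAATCC (Pitx), 2.81%, 4.43% and 3.05% for TAATTA (homeodomain core), and 2.81%, 2.58% and 2.63% for TGTTTAC (forkhead). No share was larger in higher genes than in all tested genes beyond its 95% exact binomial interval, which for AAGGTCA ran from 1.58% to 4.60%.

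Of 21 receptors for trophic factors 4 were higher (19%) and 1 lower (4.76%), where 3.63% and 9.17% of all genes tested were. Over the median abundance these shares were 6.87% and 6.27%. Both subunits of the receptor for GDNF, a survival factor of dopamine neurons, were higher. Ret, the signalling subunit, lies at chr6:118151748-118197744 (GRCm38.p6) and stood at 1134, 1335, 1195 and 2174 CPM against 79.5, 80.3, 54.8 and 84.4 CPM, a log2 fold change of 4.30 (SE 0.30, edgeR's adjusted p 0.000642). Gfra1, the subunit that binds GDNF, stood at 249.1, 254, 239 and 516 CPM against 70.0, 74.0, 52.2 and 94.1 CPM and had a log2 fold change of 2.12 (SE 0.31, edgeR's adjusted p 0.0067). Replicate 4 was the highest dopaminergic library for both genes. Erbb4, a neuregulin receptor, was higher by 1.43 on the log2 scale, with little spread (201 to 272 against 81.3 to 97.6 CPM). Fgfr3, which is also on the astrocyte list, was lower (24.9 ± 16.9 against 118 ± 43.8 CPM), and lost its call without non-dopaminergic replicate 1, 3 or 4 (edgeR's adjusted p 0.0574, 0.0643 and 0.0679).

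Nicotinic acetylcholine receptor subunits, through which brainstem acetylcholine and nicotine excite dopamine neurons, were higher in 6 of 11 tested members (54.5%, against 3.63% of all genes tested) and lower in 0, with a median log2 fold change of 2.09. The α6 and β3 subunits assemble together. Chrna6 was at 529, 833, 617 and 1176 CPM against 29.6, 34.7, 18.5 and 29.6 CPM (log2 fold change 4.82, SE 0.35, edgeR's adjusted p 0.000651). Chrnb3 was at 363, 535, 453 and 852 CPM against 21.1, 42.2, 17.5 and 18.9 CPM (log2 fold change 4.48, SE 0.41, edgeR's adjusted p 0.00135). For both, replicate 4 was the highest dopaminergic library and replicate 2 the highest non-dopaminergic one. Chrna4 was higher by 2.17, Chrna5 by 3.66 and Chrna3 by 2.84 on the log2 scale. Chrna5 and Chrna3 are neighbours in a cluster of genes and overlap at their ends, so that reads there could have been counted for either. Chrna7, the subunit of a rapid, calcium-permeable receptor, was at 27.6 ± 10.3 against 6.55 ± 4.61 CPM and lost its call without dopaminergic replicate 4 or non-dopaminergic replicate 1, 2 or 3 (edgeR's adjusted p 0.0187 to 0.108 over the 8 fits).

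Among 8 genes of dopamine receptors and G protein-gated potassium channels, 1 was higher and 1 lower (12.5% each). Over all genes tested 3.63% were higher and 9.17% lower, and over the median abundance 6.87% and 6.27%, so each share rests on a single gene. The higher gene was the autoreceptor Drd2, at 96.5, 69.7, 134 and 112 CPM against 8.54, 9.50, 14.2 and 8.84 CPM (log2 fold change 3.34, SE 0.29, edgeR's adjusted p 0.00101). Drd3 had 0 counts in every dopaminergic library against 0.500 to 2.87 CPM in the others, through which alone it passed the filter on low counts, so its call is no test. Kcnj6, the channel to which the autoreceptor couples, stood at 35.5, 72.0, 74.6 and 81.4 CPM against 68.9, 39.5, 54.3 and 39.5 CPM, and the groups overlapped (edgeR's adjusted p 0.516).

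Of 37 peptide and hormone receptors, 6 were higher (16.2%) and 1 lower (2.7%), against 3.63% and 9.17% of all genes tested. Among genes over the median abundance 6.87% were higher and 6.27% lower. Oprk1, the κ opioid receptor through which dynorphin inhibits these cells, lies at chr1:5588450-5606134 and stood at 221, 380.0, 428 and 440.2 CPM against 33.4, 34.5, 23.1 and 28.9 CPM (log2 fold change 3.63, SE 0.28, edgeR's adjusted p 0.000651). It ranged from 225 to 492 CPM in the 7 dopaminergic libraries that entered no test. Ntsr1, the neurotensin receptor of neurons, was higher by 3.79 (SE 0.54, edgeR's adjusted p 0.0067), at 121, 199, 223 and 488 against 24.8, 8.02, 14.6 and 27.5 CPM. Its relative Ntsr2, which astrocytes express, went the other way, at 56.3, 56.1, 42.6 and 61.0 against 283, 395, 191 and 227 CPM (log2 fold change -2.33, edgeR's adjusted p 0.00258). Tacr3, the neurokinin B receptor, was higher by 3.59 and Oprl1, the nociceptin receptor, by 1.179 on the log2 scale. The feeding receptors Ghsr (ghrelin; 35.2 ± 16.6 against 6.46 ± 4.83 CPM) and Lepr (leptin; 26.2 ± 10.7 against 8.61 ± 0.847 CPM) were called higher but each lost the call without some libraries. For Ghsr these were dopaminergic replicate 4 and non-dopaminergic replicates 1, 2 and 3 (edgeR's adjusted p 0.0152 to 0.0797 over the 8 fits), and for Lepr non-dopaminergic replicates 1, 3 and 4 (0.0135 to 0.0751). Gucy2c, the receptor guanylyl cyclase for guanylin peptides that is best known from the intestine, was among the 20 genes with the lowest p-values, at 95.6, 99.7, 128 and 139 CPM against 7.27, 10.2, 4.71 and 3.81 CPM (log2 fold change 4.17, SE 0.36, edgeR's adjusted p 0.00101). Its lowest dopaminergic value was far above its highest non-dopaminergic value.

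Of 58 potassium channel genes 5 were higher (8.62%, against 3.63% of all genes tested and 6.87% of those over the median abundance) and 2 lower (3.45%, against 9.17% and 6.27%). Of 36 sodium, calcium and cation channel genes 5 were higher (13.9%) and 0 lower. Kcnd3 (Kv4.3), the A-type channel that slows pacemaking, stood at 220.4, 279.6, 322 and 325 CPM against 71.2, 73.0, 73.8 and 88.8 CPM (log2 fold change 1.91, SE 0.19, edgeR's adjusted p 0.00166). Kcnn3 (SK3), a calcium-activated channel that keeps pacemaking regular, stood at 107, 99.1, 203 and 162 CPM against 52.9, 32.4, 58.3 and 36.5 CPM (1.68, SE 0.30, edgeR's adjusted p 0.00671). Both sets of values were apart, Kcnd3 with less spread than Kcnn3. Kcns3, a silent subunit that modifies Kv2 channels, was higher by 2.78 and Kcna3 by 1.37 on the log2 scale. Dpp10, a partner of Kv4 channels, was higher by 1.27 and lost its call without non-dopaminergic replicate 1 or 3 (edgeR's adjusted p 0.059 and 0.0546). Kcnj10, the inward rectifier of glia, was lower (23.8 ± 12.8 against 111 ± 10.8 CPM). Trpc6, a cation channel opened by diacylglycerol, stood at 153, 193, 107 and 177 CPM against 10.4, 8.91, 13.5 and 17.9 CPM (log2 fold change 3.64, SE 0.30, edgeR's adjusted p 0.000814). The sodium channel genes Scn2a1, Scn3b, Scn3a and Scn9a were higher by 1.09, 1.41, 1.75 and 1.82 on the log2 scale. Scn9a and Scn3a had 265, 297, 329.8 and 328 against 108, 88.0, 90.2 and 61.0 CPM and 529.8, 644, 756 and 632 against 169, 211, 191 and 198 CPM. Hcn2, of the pacemaker current, was at 22.8 ± 5.01 against 31.6 ± 15.6 CPM and did not pass (edgeR's adjusted p 0.545), nor did the L-type calcium channel gene Cacna1d, at 115 ± 53.8 against 83.8 ± 23.1 CPM (edgeR's adjusted p 0.45).

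Genes of vesicle release and of peptide cargo were higher in part. Of 64 release genes 14 were higher (21.9%) and 3 lower (4.69%), with a median log2 fold change of -0.09, against 3.63% and 9.17% of all genes tested and 6.87% and 6.27% of those over the median abundance. The count of higher members was 7 without non-dopaminergic replicate 1, and likewise without replicate 2 or 3. It was 6 when libraries were scaled to the sum of general neuron genes, much of which is Meg3. Of the 24 general neuron genes themselves, 6 were higher (25%) and 2 lower (8.33%). The release share does not exceed that one, nor do those of the cytoskeleton (19.6%), folding (23.5%) and oxidative phosphorylation (21.1%) lists below. HA-negative nuclei include glia, and the part of glial nuclei in higher genes was not tested. Syt4 and Syt1, synaptotagmins of dense-core and synaptic vesicles, stood at 2752, 3756, 2419 and 3477 against 718, 950.2, 588 and 1111 CPM and at 2333, 2599.7, 3377 and 3891 against 965, 1111, 1110.2 and 1324 CPM (log2 fold changes 1.89 and 1.45, edgeR's adjusted p 0.0067 for each). No dopaminergic library overlapped the others for either gene. Sv2c, the vesicle glycoprotein of basal ganglia and dopamine neurons, was higher by 3.49 (SE 0.52), at 89.9, 386, 247 and 484 against 18.9, 18.9, 36.1 and 34.2 CPM, with replicate 1 the lowest of the dopaminergic libraries. Cadps2, which primes dense-core vesicles and vesicular monoamine uptake, was higher by 2.11. Pclo, the active-zone scaffold piccolo, was lower at 70.8, 94.1, 89.9 and 83.0 against 160.3, 184, 227 and 147 CPM (-1.08, SE 0.19, edgeR's adjusted p 0.0067). Snap25, the core fusion protein of all neurons, stood at 477 ± 57.5 against 429 ± 105 CPM (edgeR's adjusted p 0.721).

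Of 27 neuropeptide precursors 3 were higher (11.1%, against 3.63% of all genes tested and 6.87% of those over the median abundance) and 0 lower. Cck, the peptide found in many ventral tegmental dopamine neurons, stood at 71.5, 44.9, 172 and 96.9 CPM against 12.1, 8.89, 23.5 and 22.4 CPM (log2 fold change 2.54, SE 0.48, edgeR's adjusted p 0.00764). Vip stood at 28.2, 50.5, 67.4 and 39.1 CPM against 2.26, 6.96, 1.98 and 5.62 CPM (3.47, SE 0.53, edgeR's adjusted p 0.0067). Scg2 (secretogranin II), a granule protein that is also a peptide precursor, was at 2343, 3011, 2909 and 3210.4 CPM against 978, 1151, 805 and 1168 CPM (1.495, SE 0.23, edgeR's adjusted p 0.0067). Dopaminergic replicate 3 was the highest library for both Cck and Vip.

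Of 72 guidance genes 9 were higher (12.5%) and 6 lower (8.33%, and 10 members without dopaminergic replicate 4), and of 67 synaptic adhesion genes 10 were higher (14.9%) and 2 lower (2.99%). Over all genes tested 3.63% were higher and 9.17% lower, and among genes over the median abundance 6.87% and 6.27%. Ntn1, the secreted cue netrin 1, stood at 106, 117, 243 and 205 CPM against 21.4, 12.2, 24.8 and 20.9 CPM (log2 fold change 3.09, SE 0.36, edgeR's adjusted p 0.00302), and its receptors Dcc (1.183, SE 0.19) and Unc5c (0.87, SE 0.18) were also higher. The Slit receptor Robo2 was higher by 1.181, and the ephrin receptors Epha5 and Epha4 by 1.32 and 1.01. Epha5 had little spread, 607 to 865 against 285 to 306 CPM. The lower guidance genes included the plexin Plxnb1, at 19.7, 12.4, 15.2 and 18.2 against 68.0, 55.1, 70.7 and 73.3 CPM (-2.02, SE 0.24, edgeR's adjusted p 0.00325), and the semaphorin Sema6a (-1.92, SE 0.34). In the adhesion list the higher genes included the teneurin Tenm1 (1.51), the leucine-rich repeat proteins Slitrk4 (1.82) and Flrt3 (1.73), the neurexin Nrxn3 (1.14) and the cerebellin Cbln4 (1.46), all log2 fold changes. Cdh8, a classical cadherin outside these lists, stood at 384, 384, 399 and 433 CPM against 139, 156, 132 and 153 CPM (1.48, SE 0.15, edgeR's adjusted p 0.00195). Cntn2 and Ptprd were lower, at 128, 156, 122 and 132 against 435, 299, 482 and 449.7 CPM and 254, 267, 327 and 253 against 521, 759, 578 and 460.4 CPM. Cntn2 is a contactin of myelinated axons that oligodendrocytes also make, and the sums of oligodendrocyte markers were lower in the same libraries. The part of glial nuclei in these lower genes was not tested.

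Of 46 transport and cytoskeleton genes 9 were higher (19.6%), 7 lower (15.2%) and 30 not called (median log2 fold change 0.11). The shares were 3.63% higher and 9.17% lower over all genes tested, and 6.87% and 6.27% over the median abundance. The tubulin Tuba4a stood at 93.0, 68.2, 65.4 and 96.8 CPM against 33.0, 34.9, 31.3 and 32.7 CPM (1.305, SE 0.20, edgeR's adjusted p 0.0067), Tuba1a was higher by 1.17, Tubb2a by 1.06, the tubulin-binding Stmn3 by 1.52 and the growth cone protein Gap43 by 1.34. Mapt, which encodes tau, stood at 107, 98.9, 195 and 130.1 CPM against 413, 509, 454 and 349.9 CPM (-1.69, SE 0.25, edgeR's adjusted p 0.0067). The ankyrin Ank3, which anchors channels at the axon's initial segment, stood at 107, 138, 169 and 166 CPM against 313, 353, 413 and 333 CPM (-1.27, SE 0.20, edgeR's adjusted p 0.0067), and Stmn4, Ank2 and the linker Dst were lower by 2.04, 1.07 and 0.98 on the log2 scale. For each of these lower genes the populations did not overlap. 

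Of 34 tested genes of protein folding and the unfolded protein response, among them chaperones of the endoplasmic reticulum (ER), 8 were higher (23.5%), 0 lower and 26 not called. Over all genes tested 3.63% were higher, and 6.87% of those over the median abundance. Of the 34, 31 had a positive log2 fold change, and the median was 0.85. DESeq2 called 17 of them higher and limma-voom 11. Hspa5 (BiP), the main ER chaperone, stood at 8062, 6858, 1939 and 6939.6 CPM against 1369.5, 1945, 772 and 1647 CPM, and its log2 fold change was 2.06 (SE 0.48, edgeR's adjusted p 0.0208). Dopaminergic replicate 3 was below non-dopaminergic replicate 2, so the groups overlapped in that library, while the other 3 dopaminergic libraries were far above every non-dopaminergic one. Calr, the calcium-binding lectin chaperone, stood at 1344, 1199.5, 857 and 1153 CPM against 430.5, 549, 456 and 542 CPM (1.21, SE 0.21, edgeR's adjusted p 0.0067). It did not overlap, and replicate 3 was again the lowest dopaminergic library. Hsp90b1 (GRP94), at 1383, 1925, 1086 and 1461 against 669.5, 980.2, 574 and 818 CPM, was higher by 0.96 (SE 0.26, edgeR's adjusted p 0.0401). The remaining 5 were Pdia4, Sdf2l1, Atf6, Sel1l and Manf, with log2 fold changes from 0.96 to 1.60. The count of higher members was 14 without dopaminergic replicate 3, and 1 (Calr), 2 and 4 without non-dopaminergic replicates 1, 3 and 4. Hspa5 lost its call without non-dopaminergic replicate 1, 3 or 4 (edgeR's adjusted p 0.0735, 0.0562 and 0.0564). Hsp90b1 and Manf lost theirs in 6 of the 8 fits, all but those without dopaminergic replicate 3 or non-dopaminergic replicate 2 (edgeR's adjusted p 0.0183 to 0.132 and 0.0124 to 0.122). Sdf2l1 lost its call without non-dopaminergic replicate 1, 3 or 4 (0.00684 to 0.0715), Pdia4 without 1, 2 or 3 (0.00888 to 0.064), Sel1l without 1 (0.0117 to 0.0615), and Atf6 without 1, 2 or 3 or dopaminergic replicate 2 or 4 (0.0129 to 0.105). Xbp1, the transcription factor of this response, stood at 269 ± 85.7 against 220.5 ± 48.3 CPM and did not pass (edgeR's adjusted p 0.607), and Ddit3 (CHOP), its marker of prolonged stress, stood at 118, 62.8, 68.6 and 50.4 against 32.1, 51.1, 27.3 and 29.3 CPM (edgeR's adjusted p 0.0557, and 0.0308 to 0.15 over the 8 fits without 1 library). Ddit3 was called higher with DESeq2 and limma-voom, and with edgeR without dopaminergic replicate 4 or non-dopaminergic replicate 2.

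The ER stress response element, a motif that ATF6 and XBP1 bind together with NF-Y, is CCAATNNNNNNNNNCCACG. It was searched on both strands after the values of these genes were seen. It was present in 4 of 533 promoters of higher genes (0.75%, 95% exact interval 0.205% to 1.91%), 3 of 1241 of lower genes (0.242%) and 21 of 13966 of all genes tested (0.15%). Without non-dopaminergic replicates 1, 3 and 4 in turn the share of higher genes was 0.370%, 0.341% and 0.313%, and without both of replicate 2 it was 0.224%. Without dopaminergic replicate 3 it was 1.05%. The 4 in the full fit were Hspa5, Calr, Hsp90b1 and Spats2l, the last of which (1.05) lost its call without any 1 of the non-dopaminergic libraries (edgeR's adjusted p 0.0141 to 0.0816 over the 8 fits). The 250 bases before the start site of 3 of them are printed because they are chaperone genes that were all called higher, from RefSeq (GRCm38.p6), 5′ to 3′ on the gene's strand, with each match in capitals. The Hspa5 window is chr2:34771840-34772089 on the plus strand, the Calr window chr8:84846932-84847181 on the minus strand and the Hsp90b1 window chr10:86705445-86705694 on the minus strand. Counted from the start site, the match lies at -65 to -47 in Hspa5 and at -162 to -144 in Calr, and Hsp90b1 has 2 matches, at -212 to -194 and -107 to -89.
Hspa5: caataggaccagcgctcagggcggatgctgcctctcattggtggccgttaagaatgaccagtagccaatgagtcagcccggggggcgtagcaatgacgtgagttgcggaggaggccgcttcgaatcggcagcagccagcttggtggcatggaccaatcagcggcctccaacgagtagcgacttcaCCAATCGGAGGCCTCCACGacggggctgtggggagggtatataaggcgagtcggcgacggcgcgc
Calr: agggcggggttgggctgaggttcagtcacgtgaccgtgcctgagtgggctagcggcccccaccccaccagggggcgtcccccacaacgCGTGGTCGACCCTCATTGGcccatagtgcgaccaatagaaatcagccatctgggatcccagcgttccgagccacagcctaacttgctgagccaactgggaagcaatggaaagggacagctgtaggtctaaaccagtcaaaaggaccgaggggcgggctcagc
Hsp90b1: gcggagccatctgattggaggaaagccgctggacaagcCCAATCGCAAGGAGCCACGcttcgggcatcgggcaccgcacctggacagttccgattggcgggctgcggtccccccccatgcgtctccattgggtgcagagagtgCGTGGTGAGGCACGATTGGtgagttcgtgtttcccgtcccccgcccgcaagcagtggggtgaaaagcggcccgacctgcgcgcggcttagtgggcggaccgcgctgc
Of the 21 tested genes with a match, 14 were not called in either direction, among them the chaperone genes Canx (1986, 2711, 1432 and 2487 against 852, 1807, 689.8 and 1273 CPM, edgeR's adjusted p 0.144), Pdia6 (log2 fold change 0.87, edgeR's adjusted p 0.136) and Dnajc3 (0.50, 0.414).

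Genes for the entry of proteins into the ER and for their glycosylation were higher in part, in a list added after the values were seen. Of 46 tested 7 were higher (15.2%, against 3.63% of all genes tested and 6.87% of those over the median abundance) and 0 lower, with a median log2 fold change of 0.67. Without non-dopaminergic replicate 1 the count was 4, without dopaminergic replicate 3 it was 20, and with DESeq2 it was 17. Ostc, a subunit of the oligosaccharyltransferase, stood at 163, 147, 124 and 180.0 CPM against 60.9, 90.3, 39.9 and 61.9 CPM (1.29, SE 0.26, edgeR's adjusted p 0.00951). Alg2, a mannosyltransferase that builds the sugar precursor, stood at 989, 1254, 617 and 1353 CPM against 397, 444, 228 and 444 CPM (1.49, SE 0.31, edgeR's adjusted p 0.0124). Sec62, a part of the translocation channel, was higher by 0.94, and Ssr4, a part of the translocon-associated complex, by 0.92. The groups did not overlap for these 4 genes. Among abundant genes outside the lists, the ER-shaping proteins Rtn1 and Arl6ip1 stood at 3092, 2613, 2719.8 and 3380.1 against 1242, 1201, 952 and 1403 CPM and 1515, 1502, 1342 and 1756 against 622, 889, 442 and 711 CPM (1.31 and 1.21). Clptm1l, a membrane protein of the ER, varied little within either population, at 334, 322, 295 and 305 CPM against 62.0, 81.2, 53.5 and 57.6 CPM (2.32, SE 0.18, edgeR's adjusted p 0.000733).

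Some genes of respiration and translation were higher as well. Of 76 nuclear-encoded subunits of oxidative phosphorylation 16 were higher (21.1%, against 3.63% of all genes tested and 6.87% of those over the median abundance), 0 lower and 60 not called, 74 had a positive log2 fold change, and the median was 0.74. Atp5o, a subunit of the ATP synthase stalk, stood at 115, 140.3, 90.6 and 101 CPM against 47.7, 67.4, 44.0 and 47.1 CPM (1.13, SE 0.22, edgeR's adjusted p 0.00801). Ndufb10, of complex I, stood at 112, 97.9, 72.8 and 101 CPM against 47.0, 57.0, 46.1 and 43.3 CPM (1.00, SE 0.20, edgeR's adjusted p 0.00844), and Uqcrq, of complex III, at 122, 81.4, 90.7 and 74.5 CPM against 39.3, 53.8, 34.0 and 30.1 CPM (1.24, SE 0.25, edgeR's adjusted p 0.0101). Dopaminergic and non-dopaminergic libraries did not overlap for these 3. The count of higher members was 9 without dopaminergic replicate 1 and 6, 7 and 7 without non-dopaminergic replicates 1, 3 and 4. With the replicate number as a block it was 4, and Ndufb10 lost its call, though the labels do not say that numbers pair. It was 41 with DESeq2 and 32 with limma-voom. In lists added after the values were seen, 27 of 80 cytosolic ribosomal protein genes (33.8%, median 1.05), 4 of 13 mitochondrially encoded subunits (30.8%, median 0.82) and 3 of 21 V-ATPase subunits (14.3%) were higher. Of 37 proteasome subunits 1 was higher (2.7%), a share below the 3.63% of all genes tested, and 0 members of these 4 lists were lower. The proteasome count was 7 without non-dopaminergic replicate 2, 4 without dopaminergic replicate 4, 3 without dopaminergic replicate 3, 2 without dopaminergic replicate 2 and 0 without any 1 of the others, and 9 with DESeq2. Rpl32 stood at 71.9, 53.9, 42.7 and 50.0 CPM against 15.6, 23.7, 13.3 and 19.9 CPM (1.60, SE 0.28, edgeR's adjusted p 0.0067). The ribosomal count was 16 without dopaminergic replicate 1 and 11 without non-dopaminergic replicate 1, and likewise without replicate 3 or 4. It was 5 under the block, 53 with DESeq2 and 54 with limma-voom. The mitochondrially encoded count was 2 without dopaminergic replicate 1 and 0, 1 and 0 without non-dopaminergic replicates 1, 3 and 4. It was 0 under the block and 6 with DESeq2. The V-ATPase count was 6 without dopaminergic replicate 3 and 1 without dopaminergic replicate 1 or non-dopaminergic replicate 1 or 3. It was 5 under the block and 9 with DESeq2. Atp6v0b, of the proton pump that acidifies vesicles, stood at 1464, 1533, 969.5 and 1506 CPM against 485, 668, 351 and 576 CPM (1.41, SE 0.26, edgeR's adjusted p 0.00699). Ribosomal protein genes have many processed pseudogenes, and the mitochondrial genome has copies in nuclear DNA, so these values are uncertain where reads were shared with a copy.

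**Figure D4:**
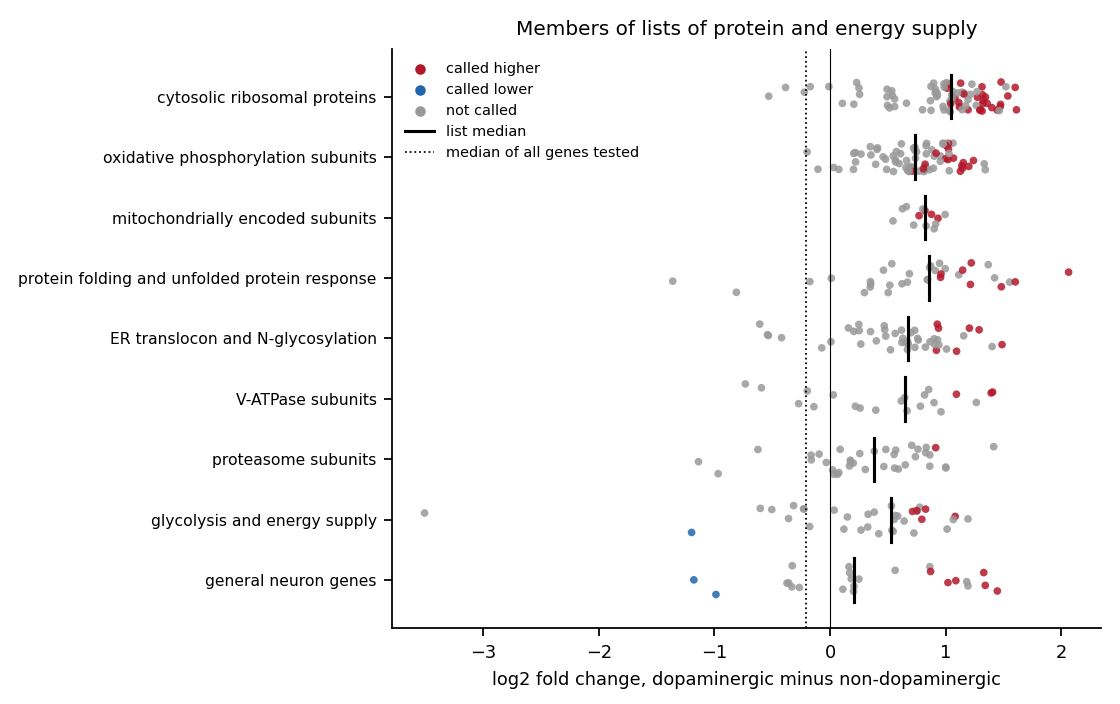
Log2 fold change of each tested member of 9 lists (points, red where called higher, blue where called lower), with the list's median (bar) and the median of all genes tested (dotted line, -0.21). The medians of the ribosomal, oxidative phosphorylation, mitochondrially encoded and protein folding lists lie between 0.74 and 1.05, and that of the general neuron list at 0.20.

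Measures of RNA class and gene size moved with these groups. Summed mitochondrially encoded RNA, which does not come from the nucleus, stood at 3635 to 4705 CPM in dopaminergic and 2057 to 3354 CPM in non-dopaminergic libraries, and summed ribosomal protein RNA at 3193 to 4933 against 1651 to 2549 CPM. Among genes over the median abundance, the 2437 with the shortest gene spans (up to 11.96 kb) held 11.8% higher and 3.65% lower genes, with a median log2 fold change of 0.31. The 2436 with the longest spans (over 69.92 kb) held 6.49% higher and 9.15% lower genes, with a median of -0.18. The median span was 3.17 kb for the ribosomal, 7.21 kb for the oxidative phosphorylation, 9.68 kb for the folding and 14.7 kb for the ER translocon list, against 297 kb for the synaptic adhesion list. Scaled to the sum of the general neuron genes instead of by TMM, 16 ribosomal, 6 oxidative phosphorylation, 2 folding, 3 ER translocon, 1 V-ATPase and 0 mitochondrially encoded members were higher. In each list 0 were lower, and the medians stayed between 0.59 and 0.99. Much of that sum is Meg3, at 11099 to 24127 CPM in dopaminergic and 16956 to 22897 CPM in non-dopaminergic libraries. The scaling is thus no measure of neuronal content. The part of RNA from outside the nucleus, or of gene length, in these groups was not tested.

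Of 34 genes of iron and zinc handling 3 were higher (8.82%, and 7 members without dopaminergic replicate 3) and 3 lower (8.82%). The background was 3.63% and 9.17% of all genes tested, and 6.87% and 6.27% of those over the median abundance. Zinc transporters were among both. Slc39a4 (ZIP4), a zinc importer known from the intestine, lies at chr15:76612383-76618506. It stood at 78.7, 92.1, 99.9 and 150.1 CPM against 4.31, 2.73, 2.73 and 3.48 CPM and had a log2 fold change of 5.00 (SE 0.31, edgeR's adjusted p 0.000612). Its counts were 2763 to 6881 in dopaminergic libraries against 117 to 210 in the others, and it ranged from 65.4 to 153 CPM in the 7 dopaminergic libraries that entered no test. Slc39a11, another zinc transporter of the same family, stood at 113, 100.5, 90.1 and 119 CPM against 40.7, 27.5, 24.4 and 45.3 CPM (1.62, SE 0.25, edgeR's adjusted p 0.0067). Slc30a1, which exports zinc from cells, was higher by 1.41 and lost its call without non-dopaminergic replicate 1 or 3 (edgeR's adjusted p 0.0625 and 0.0573). Trf (transferrin) and Cp (ceruloplasmin), made mainly by glia, were lower, at 349 ± 120.2 against 4746 ± 2641 CPM and 2.81 ± 1.42 against 41.1 ± 14.6 CPM. The third lower member, Slc39a12, is also on the astrocyte list. It stood at 50.5 ± 19.7 against 176 ± 111 CPM and lost its call in 4 of the 8 fits (edgeR's adjusted p 0.0165 to 0.065), those without dopaminergic replicate 1, 2 or 3 or non-dopaminergic replicate 1.

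Among genes tied to Parkinson disease 5 of 24 were higher (20.8%, against 3.63% of all genes tested and 6.87% of those over the median abundance) and 0 lower. Sncg, γ-synuclein, stood at 64.6, 43.6, 26.4 and 41.4 CPM against 4.48, 7.19, 2.24 and 2.96 CPM (log2 fold change 3.39, SE 0.48, edgeR's adjusted p 0.0067). The lowest dopaminergic value was above every non-dopaminergic one. Uchl1, a deubiquitinase of neurons, was higher by 0.87. Gch1, also on this list, was given above, and Park7 was higher by 0.85 but lost its call in 5 of the 8 fits (edgeR's adjusted p 0.0297 to 0.118), those without dopaminergic replicate 1 or 4 or non-dopaminergic replicate 1, 3 or 4.

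Of 28 tested genes of lipid and sterol synthesis 4 were higher (14.3%, against 3.63% of all genes tested), 4 lower (14.3%, against 9.17%) and 20 not called. Their median log2 fold change was -0.02. Among genes over the median abundance 6.87% were higher and 6.27% lower. Insig1, which holds cholesterol synthesis in check, stood at 289, 256, 249.8 and 374 CPM against 98.0, 77.3, 71.5 and 133 CPM (1.63, SE 0.25, edgeR's adjusted p 0.0067). The groups did not overlap, and Fdft1 was higher by 0.90. Fdps was higher by 1.16 and lost its call without non-dopaminergic replicate 1, 3 or 4 (edgeR's adjusted p 0.0122 to 0.0681 over the 8 fits). The lower members included Fa2h and Cers2, which make the sphingolipids of myelin (23.9 ± 17.96 against 362 ± 102 CPM and 46.1 ± 12.2 against 252 ± 61.5 CPM), and Apoe, the lipid carrier of astrocytes, at 1363, 919.6, 691 and 1071 against 3921, 7298, 2627 and 3437 CPM. The fourth, the desaturase Scd2, stood at 607 ± 104 against 1138 ± 263 CPM and lost its call in 6 of the 8 fits, all but those without dopaminergic replicate 4 or non-dopaminergic replicate 3 (edgeR's adjusted p 0.0207 to 0.0988).

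Among imprinted and growth-linked genes 5 of 22 were higher (22.7%) and 1 lower (4.55%). These shares compare with 3.63% and 9.17% of all genes tested, and 6.87% and 6.27% of those over the median abundance. Dlk1, a paternally expressed Notch-like protein, lies at chr12:109452485-109463336 and stood at 907, 1047, 1468 and 1609 CPM against 167, 150.5, 141 and 139 CPM, a log2 fold change of 3.09 (SE 0.24, edgeR's adjusted p 0.000733). The 4 non-dopaminergic values lay close together, and the dopaminergic ones spread more widely. Ndn (necdin) was higher by 1.48 and Zdbf2 by 1.27. Meg3, the maternally expressed noncoding RNA next to Dlk1, stood at 14382, 11099, 24127 and 14847 CPM against 20528, 21337, 22897 and 16956 CPM, and the groups overlapped (edgeR's adjusted p 0.683). Ndnf, a secreted factor outside these lists, was also among the 20 genes with the lowest p-values, at 185, 316, 212 and 248.6 CPM against 14.9, 22.6, 15.7 and 35.0 CPM (3.46, SE 0.34, edgeR's adjusted p 0.00164), as was Cdc42ep3, an effector of the GTPase Cdc42, at 125, 114, 108 and 94.3 CPM against 31.4, 23.4, 26.8 and 19.1 CPM (2.14, SE 0.21, edgeR's adjusted p 0.00175).

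Many markers of glia were lower in dopaminergic nuclei. Of the tested markers 10 of 19 for oligodendrocytes (median log2 fold change -3.06), 11 of 16 for astrocytes (-2.18) and 9 of 15 for microglia (-1.73) were lower, against 9.17% of all genes tested. Of 11 markers of oligodendrocyte precursors 1 was lower (9.09%), and 0 in any of these lists were higher. The background of 9.17% includes 1122 genes with at most 3 counts in every dopaminergic library, and over the median abundance it was 6.27%. DESeq2 called 3 of the 11 precursor markers lower and limma-voom 5, but edgeR 0 without any 1 non-dopaminergic library. Their median was -1.999, but 0.359 where at least 10 counts were asked of every library. Their sums did not overlap (359 to 426 against 608 to 686 CPM), so precursor markers are not shown to be unchanged. Hapln2, a link protein of the nodes of myelinated axons, stood at 29.3, 24.1, 15.9 and 24.0 CPM against 771, 361, 552 and 574 CPM (-4.59, SE 0.31, edgeR's adjusted p 0.000624). Slc1a3, the astrocyte glutamate transporter, was at 63.4, 46.7, 45.6 and 54.0 CPM against 472, 543, 242 and 429 CPM (-2.995, SE 0.28, edgeR's adjusted p 0.00135), and P2ry12 of microglia at 41.9, 51.4, 43.0 and 36.7 CPM against 154, 310.4, 175 and 135 CPM (-2.15, SE 0.29, edgeR's adjusted p 0.00581). Glial RNA was thus present in the dopaminergic libraries at reduced levels, and non-dopaminergic replicate 2 was the highest library for Slc1a3 and P2ry12. Gfap, the astrocyte filament, did not follow, at 260.0, 150.3, 177 and 283 CPM against 234, 249.6, 149 and 239 CPM (edgeR's adjusted p 0.99), and Mbp stood at 1291, 762, 899 and 1247 CPM against 2077, 1096, 2155 and 1732 CPM (edgeR's adjusted p 0.147). In bulk libraries of sorted nuclei, fewer nuclei of a type and less of its RNA per nucleus cannot be told apart.

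**Figure D5:**
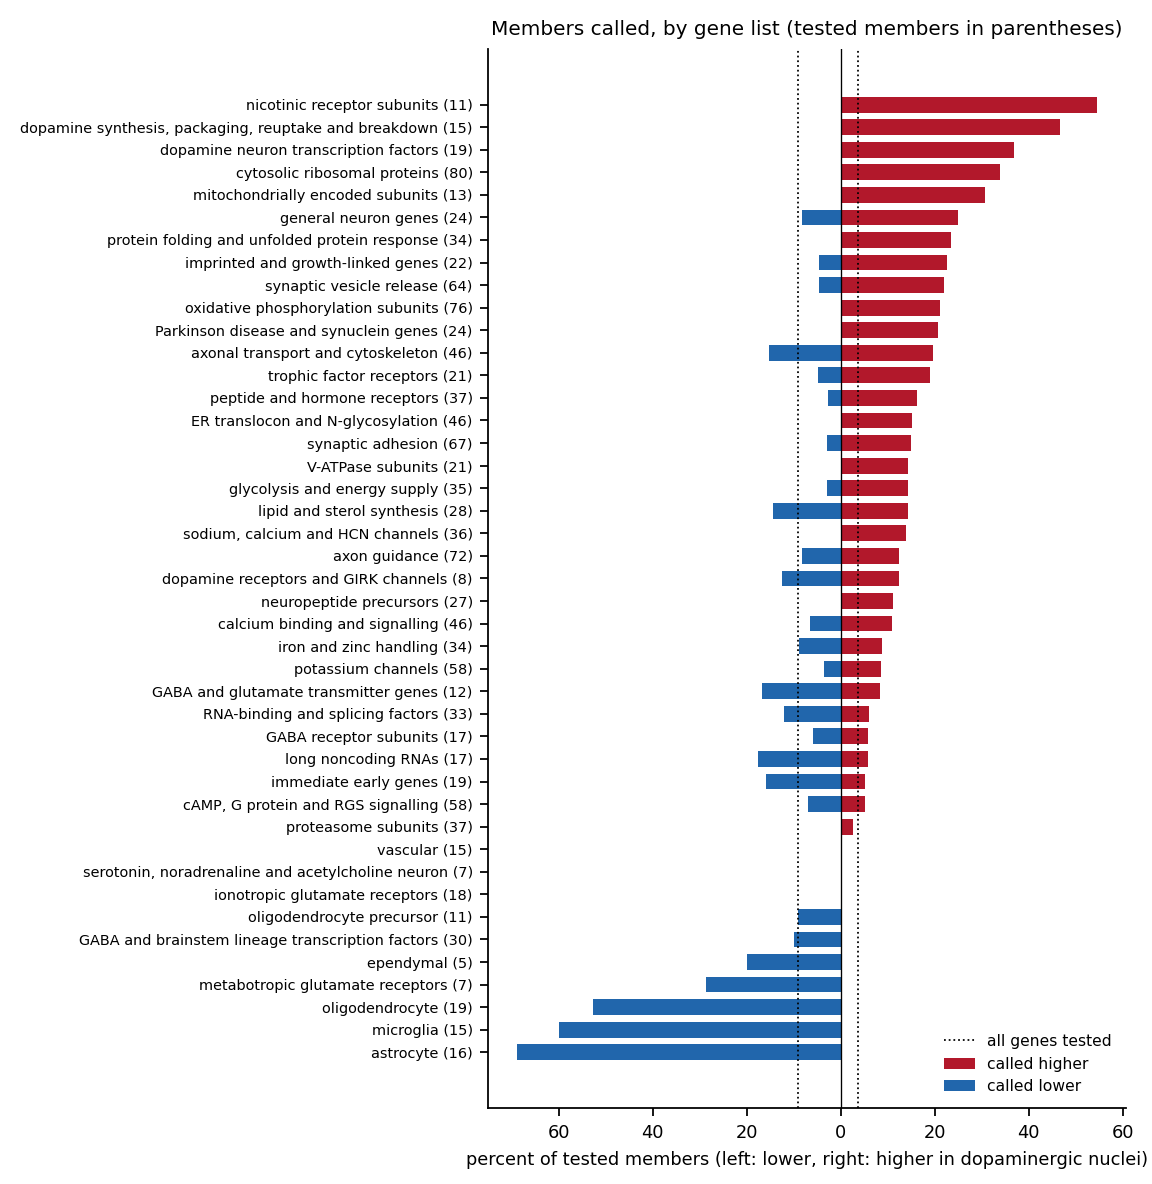
Percent of the tested members of each list that were called higher (red, to the right) or lower (blue, to the left) with edgeR, and the shares over all 19786 genes tested (3.63% and 9.17%) drawn as dotted lines. Nicotinic receptor subunits, dopamine handling and transcription factors have the largest shares higher, and astrocyte, microglia and oligodendrocyte markers the largest shares lower.

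Some lower genes are not on the glial marker lists. The summed glial markers were lower in the same libraries (1843 to 2929 against 10447 to 24169 CPM for oligodendrocytes), and the part of glial nuclei in these genes was not tested. Neat1, the noncoding RNA that builds paraspeckles, lies at chr19:5824708-5845480 and stood at 8.90, 5.90, 19.99 and 6.11 CPM against 699, 481, 698 and 569.8 CPM, a log2 fold change of -5.89 (SE 0.48, edgeR's adjusted p 0.000733). The noncoding RNA Malat1, encoded near it and more abundant, stood at 47630.5, 63539, 68728 and 53590.3 CPM against 62451, 94018, 67022 and 64175 CPM, and the groups overlapped (edgeR's adjusted p 0.79). Rbfox1, a splicing factor of neurons, stood at 65.8, 73.1, 81.5 and 79.4 CPM against 377, 388, 473 and 325 CPM (-2.37, SE 0.18, edgeR's adjusted p 0.000651). Its relative Rbfox3, the NeuN antigen by which neurons are often sorted, was lower at 59.2, 50.3, 24.9 and 45.2 CPM against 112, 101, 102 and 94.6 CPM (-1.18, SE 0.26, edgeR's adjusted p 0.0163), and lost its call without non-dopaminergic replicate 1 (0.0606). The RNA-binding Elav genes parted, with Elavl2 and Elavl4 higher by 1.29 and 1.33 and Elavl3 lower by 0.99 on the log2 scale. Arpp21, a calmodulin- and RNA-binding phosphoprotein of neurons, stood at 57.7, 63.8, 40.7 and 77.5 CPM against 284, 319, 303 and 304 CPM (-2.33, SE 0.22, edgeR's adjusted p 0.00135), and the kinase Tnik at 77.6, 102, 69.4 and 84.6 CPM against 297, 273, 324 and 279.9 CPM (-1.80, SE 0.18, edgeR's adjusted p 0.00166). Gnao1, the G protein subunit through which Drd2 and Oprk1 signal, was lower at 76.5, 62.3, 89.6 and 84.0 CPM against 225, 153, 196 and 210.0 CPM (-1.32, SE 0.19, edgeR's adjusted p 0.0067), while the γ subunit Gng3 was higher by 1.28. Epb41l3, a membrane-skeleton protein of axons and myelin, was lower by 2.53. Other genes among the 20 with the lowest p-values in this direction were Cd82, Fnbp1, Ptgds, Phlpp1, Map7, Mog, Ttyh2, Ssfa2, Dopey2 and Tmem88b, of which Mog is on the oligodendrocyte list, with log2 fold changes between -3.62 and -1.93.

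Receptors for the fast transmitters were called at shares near or under those of all genes tested, 3.63% higher and 9.17% lower. Lists this short would hold few calls at such shares. Of 18 ionotropic glutamate receptor genes 0 were higher and 0 lower by edgeR's test, with 2 at an unadjusted p under 0.05. DESeq2 called 1 of the 18 lower and limma-voom 0. Of 17 GABA receptor subunit genes 1 was higher and 1 lower (5.88% each), against 6.87% and 6.27% of genes over the median abundance. Gabbr1, of the slow GABA-B receptor, was higher at 889, 1072, 1059 and 1203 CPM against 457, 269, 529.6 and 534 CPM (1.25, SE 0.25, edgeR's adjusted p 0.00986). Gabrr2, called lower, had 0 counts in every dopaminergic library against 18.8, 15.9, 13.9 and 12.4 CPM, and also passed the filter through the non-dopaminergic libraries alone. Of 12 GABA and glutamate transmitter genes 1 was higher (8.33%) and 2 lower (16.7%), against 3.63% and 9.17% of all genes tested. The median log2 fold change of the 12 was -0.53. Among those not called, the vesicular GABA transporter Slc32a1 stood at 116, 117, 33.8 and 108 CPM against 57.5, 22.9, 59.5 and 80.4 CPM (edgeR's adjusted p 0.359). Of 30 transcription factors of GABA and other brainstem lineages 0 were higher and 3 called lower (10%, close to the 9.17% of all genes tested). The lower count was 5 without dopaminergic replicate 1, 3 or 4. The 3 were Barhl2, Tfap2b and Pax3, each with 0 counts in all 4 dopaminergic libraries and under 4 CPM in the others. They passed the filter only through the non-dopaminergic libraries, so that these calls are no test of the list. Of 7 tested markers of serotonin, noradrenaline and acetylcholine neurons 0 were called by edgeR's test, with 2 at an unadjusted p under 0.05, while DESeq2 called 2 higher and limma-voom 1.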

How the data were processed

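RNA was measured in sorted nuclei with a low-input kit, per the labels. The deposited values used are whole-number counts per gene, for 35976 genes in 15 libraries. A second deposited table, named as normalized, holds the same counts for 10 of the libraries (0 cells differ) and was not used. The submitters' processing notes name Trim Galore 0.6.7, cutadapt 1.18, STAR 2.7.10a, StringTie 2.1.5 and DESeq2 1.38.3 and the builds mm10 and GRCm38, without roles. The annotation, the strand setting and the treatment of reads that map to several places are not given in the sources used here.

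The 8 libraries were fitted with edgeR 4.0.16 (R 4.3.3) on the deposited counts: genes with low counts were removed (filterByExpr), libraries scaled by TMM, and populations compared by the quasi-likelihood F-test with Benjamini-Hochberg adjustment over 19786 genes at 0.05. The standard error (SE) is the log2 fold change divided by the square root of F. CPM shown use TMM factors over all 15 libraries. On simulated data with the spread and depth of these libraries, 47.8% of genes changed by 3 on the log2 scale and 4.3% of those changed by 1.5 were recovered (77.3% and 8% among genes over the median abundance), with 6 and 0 false calls over all genes simulated. Alternatives were DESeq2 1.42.0, limma-voom (limma 3.58.1), other scalings and filters, a GC correction, a replicate block and fits without each library.

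The text names the 20 genes with the lowest p-values in each direction (mean count at least 20, named genes, populations not overlapping), the 10 most abundant higher genes, and members of gene lists; some of these genes are not reported here. The lists were chosen with earlier results of these data known, and 5 of them and the ER stress motif were added after the values were seen. They are described by counts and medians, with no test. Members of lists that illustrate a group were picked from those called, and genes given as not passing were picked with their values in view. Promoters and gene positions are from RefSeq (GRCm38.p6), with a promoter for 13966 of the tested genes.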

Additional observations from a re-analysis of the deposited data

Results flagged for a closer look

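In 360 sets of 4 replicates checked (the named genes and the summed lists), 25 held a library far from the other 3, by the gap to its nearest neighbour as a share of the range. Chance gives about 1 in 20. Dopaminergic replicate 3 was that library in 7 sets. It was high for En1 (215 CPM, others 82.5 to 85.9), Maoa (78.3, others 43.7 to 46.4) and Cacna1d (195, others 80.7 to 97.6). It was low for the ER genes Sdf2l1 (56.0 CPM, others 170 to 183) and Dnajc3 (100 CPM, others 277 to 308), for Slc32a1 (33.8 CPM, others 108 to 117) and for Atp6v0b (970 CPM, others 1460 to 1530).

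Non-dopaminergic replicate 2 was apart in 5 sets, always high. These were Malat1 (94000 CPM, others 62500 to 67000), Atp5o (67.4 CPM, others 44.0 to 47.7), Gng3 (44.9 CPM, others 31.1 to 31.8), Chrnb3 (42.2 CPM, others 17.5 to 21.1) and the summed ribosomal protein genes (2550 CPM, others 1650 to 1690).

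Other dopaminergic libraries stood apart in 7 sets. Replicate 1 was low for Bnc2 (19.6 CPM) and Cbln4 (105 CPM), and high for Lepr (42.0 CPM) and the summed ribosomal protein genes (4930 CPM, others 3190 to 3230). Replicate 4 was high for Gfra1 (516 CPM, others 239 to 254), Fdft1 (229 CPM) and Slc39a12 (79.8 CPM). The remaining 6 sets were in non-dopaminergic replicates 3 and 4. Replicate 3 was low for Ret (54.8 CPM, others 79.5 to 84.4) and Gfap (149 CPM) and high for Drd2 (14.2 CPM), and replicate 4 was high for Atf6 (66.0 CPM), Kcnd3 (88.8 CPM) and Robo2 (121 CPM). None of these libraries overlapped the other population for En1, Ret, Gfra1, Chrnb3, Drd2, Bnc2 or Kcnd3.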

How the results depend on the processing

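Over the alternatives, none of the 150 called genes named in the text changed direction. Of these, 131 stayed called in each of the 8 fits that left out 1 library, 111 stayed called in all alternatives that gave a value, and 0 were lost with DESeq2. The number of genes called was 2534 (719 higher and 1815 lower). It was 1643 where at least 10 counts were asked of every library (727 lower), 3883 with DESeq2 (1505 higher), 4266 with limma-voom (3374 lower), and 775 with the replicate number as a block (413 higher and 362 lower). Scaling to the sum of general neuron genes, much of which is Meg3, gave 430 higher genes, and all 15 libraries in the fit gave 1205 lower. Leaving out 1 library, the total ranged from 1900 to 3740, the higher genes from 364 to 1145 and the lower from 1536 to 3013. List members called higher numbered 143, 231 with DESeq2, and 95 to 188 with 1 library left out. The block took the call from 20 of the 150. Of these, Cadps2, Chrna5, Foxa2, Kcna3, Ndufb10, Ssr4, Unc5c, Barhl2, Drd3, Gabrr2, Pax3 and Tfap2b had kept it in every fit without 1 library. Of the others that kept it in those fits, Fdft1 and Sec62 lost it when scaled to general neuron genes, Alg2, Epha4, Oprl1 and Robo2 without both of replicate 2, Kcnj10 with all 15 libraries and Cp with limma-voom. Named genes not called by the chosen fit were called under some alternatives: Ddit3 under 10, Lmx1b and Maoa under 4 each, Pdia6 under 3, Canx under 2, and Dnajc3 and Mbp under 1 each, among them DESeq2 for all but Dnajc3. Under the block the higher members were 4 for oxidative phosphorylation (16 without it), 5 for ribosomal proteins (27) and 0 for mitochondrially encoded subunits (4), against 10 for protein folding (8), 9 for the ER translocon (7) and 5 for V-ATPase subunits (3). The labels give the populations the same numbers without saying that they pair: deviations of same-numbered libraries correlated at 0.0948, 0.128, 0.227 and 0.207, and 7 of 8 libraries correlated best with their own number, a hint from the data and not the design. Uncalled genes changed sign near 0. Gfap moved from 0.0098 to -0.075 when scaled to general neuron genes, -0.014 with no filter and -0.0056 under the block, and between -0.144 and 0.221 without 1 library or without both of replicate 2; Snap25 went to -0.050 with the GC correction. The causes were not tested. An uncalled gene is not shown to be equal. On simulated data, with 1 spread per gene shared by both populations, edgeR recovered 4.3% of genes changed by 1.5 on the log2 scale. Of genes changed by 3 it recovered 47.8%.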
